A study of Capsella grandiflora and Capsella rubella and Capsella orientalis with 27 samples.

Results

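A set of genes of the mustard-family genus Capsella had abundant messenger RNA in flower buds that had begun to expand and mature, and little at earlier bud or seedling stages. Of 26521 genes listed, 93 met the rule that defines this set, and all 93 passed the filter on low counts. The set was chosen by measured values: a mean of at least 100 counts per 1000000 gene reads (CPM) in expanding buds of all 3 species, and a mean there at least 8-fold above that in dividing buds and in seedlings of each species, after adding 0.1 CPM. The rule fixes the stage pattern, which is therefore described below without a test. It asks for no difference between species, and that difference was tested. The floor of 100 CPM in every species limits how far a member can fall in expanding buds. All genes tested have no such floor, while the other genes with many reads, given below, share it. The 8-fold ratio likewise limits how high a member can be at the other stages.

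Messenger RNA was sequenced from C. orientalis and C. rubella, which fertilise themselves, and from C. grandiflora, which outcrosses. Each species was sampled as seedlings 10 days old, as dividing flower buds and as expanding and maturing flower buds, the last called expanding buds here. The 9 groups held 3 libraries each, 27 in all, and the labels tell groups apart by species and stage alone. Whether the 3 libraries of a group came from separate plants is not given in the sources used here. The spread between them may thus be technical. Except in a fit of 2 groups, p-values and standard errors (SE) rest on the spread within groups over all 27 libraries. Scatter at other stages thus enters each comparison.

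A flower bud grows first by cell division and later by cell expansion. In the later phase petals enlarge, stamen filaments lengthen, and pollen fills with stores, messenger RNA and coat material. In Arabidopsis, a relative, many genes with high activity in late buds alone are known from maturing pollen. Selfing plants often have smaller flowers and fewer pollen grains than outcrossing relatives, which is known as the selfing syndrome. No gene names are paired with the Carubv identifiers in the files, and no annotation was used. No role is therefore given to any of the 93 genes, and the labelled stages were not set against marker genes.

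Libraries held 10612848 to 40909319 gene counts, the fewest in C. grandiflora seedlings replicate 2. Single libraries stood apart at the low stages. That seedling library had the highest level of its group for 82 of the 93 genes, at a median 5.36 times the mean of the other libraries. C. orientalis seedlings replicate 1 was highest for 77 genes, at a median ratio of 2.64, and C. orientalis dividing buds replicate 1 was highest for 60, at 1.49. The main counts and medians that rest on these libraries are also given without them.

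In expanding buds the 93 genes took 4.25% ± 0.201 of all gene counts in C. orientalis, 3.84% ± 0.0990 in C. rubella and 7.06% ± 0.468 in C. grandiflora (SD, n = 3 each). Their summed level was 44596, 42267 and 40598 CPM in the C. orientalis libraries, 37312, 39251 and 38627 CPM in C. rubella, and 67829, 67998 and 76019 CPM in C. grandiflora. Each selfing library thus lay below each C. grandiflora library, and the C. orientalis libraries lay above those of C. rubella. These are whole-bud samples, in which fewer cells of a type and less RNA per cell cannot be told apart.

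At the other stages the sum was small. In seedlings it came to 118.9, 89.1 and 85.7 CPM in C. orientalis, 108.4, 127.5 and 115.3 CPM in C. rubella, and 111.6, 265.6 and 159.6 CPM in C. grandiflora. Dividing buds held 490.4, 466.2 and 402.4 CPM in C. orientalis, 191.7, 207.2 and 185.5 CPM in C. rubella, and 363.8, 398.4 and 305.9 CPM in C. grandiflora. In dividing buds the species did not overlap, with C. orientalis highest and C. rubella lowest, whereas in seedlings the C. grandiflora libraries spanned a range that took in all libraries of C. rubella but 1.

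**Figure D1:**
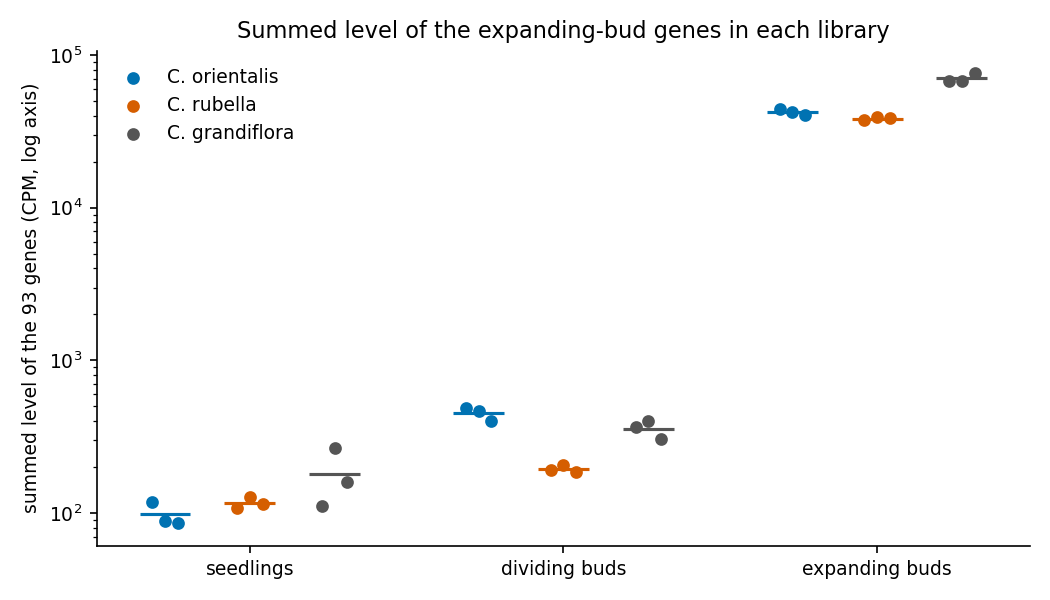
Summed level of the 93 genes in each of the 27 libraries, in CPM on a log axis, by stage and species. Points are libraries and lines are means of 3 libraries. In expanding buds the C. grandiflora libraries, at 67829 to 76019 CPM, lie above all C. orientalis and C. rubella libraries, while in dividing buds C. orientalis is highest.

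The set was broad in level. By gene, mean levels in expanding buds ran from 101.5 to 2596 CPM in C. orientalis (median 256.1), from 101.6 to 2811 CPM in C. rubella (median 245.7) and from 125.2 to 6538 CPM in C. grandiflora (median 420.3). CPM is not scaled by gene length, so these values compare a gene between samples and shares of reads, not molecules between genes. The 10 genes with the most reads made up 38.1%, 41.8% and 41.6% of the sum in C. orientalis, C. rubella and C. grandiflora. The order of the 93 genes by CPM was alike between species, with a Spearman rho across genes of 0.868 between C. orientalis and C. grandiflora, 0.939 between C. rubella and C. grandiflora, and 0.920 between C. orientalis and C. rubella. All species were counted on the same gene models, whose lengths enter each of these values, and no test was made.

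At the thresholds, the 3 genes just inside the level floor had a lowest species mean of 101.5, 101.7 and 102.6 CPM, and the 3 just outside had 99.97, 99.4 and 97.8 CPM. The lowest stage ratios inside were 8.89, 9.43 and 10.7, and the highest outside were 7.59, 7.16 and 7.14. Most members lay far from the ratio threshold. The lowest of a gene's stage ratios had a median of 125 and reached 550, and 56 of the 93 genes exceeded 100 in each species and against each stage.

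Carubv10012094m.g took the largest share of reads in all 3 species, 6.11% of the set's sum in C. orientalis, 7.32% in C. rubella and 9.26% in C. grandiflora. Its level in expanding buds was 2699.7, 2448 and 2641 CPM in C. orientalis, 2450.0, 3055 and 2928 CPM in C. rubella, and 5721, 6254 and 7639 CPM in C. grandiflora. Both selfing species were at less than the lowest C. grandiflora library in every library and overlapped each other. In dividing buds the same gene was at 21.6, 26.9 and 18.5 CPM in C. orientalis, 2.91, 5.37 and 2.73 CPM in C. rubella, and 6.63, 6.46 and 5.51 CPM in C. grandiflora. There the C. orientalis libraries were the highest.

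C. rubella expanding buds were compared with those of C. grandiflora to ask which of the 93 genes differ between a selfing species and its outcrossing relative. They were lower almost throughout: 88 genes were called lower and 0 higher by edgeR's quasi-likelihood test with a Benjamini-Hochberg adjusted p under 0.05 as the threshold and 23186 genes tested. Of all genes tested, 29.5% were called lower and 30.2% higher. At an unadjusted p under 0.05 edgeR likewise found 0 higher, and DESeq2 called 67 lower at an adjusted p under 0.05 and 0 higher by either p. The share of all genes that DESeq2 called was not counted. All 93 fitted log2 folds were negative, from -2.19 to -0.09, with a median of -0.90, against a median of 0.01 over all genes tested. In 87 of the 93 genes the 3 C. rubella libraries all lay below the 3 C. grandiflora libraries. That count was not made over all genes. A fall of at least 2-fold with a call was seen in 37 of the 93 genes, against 11.2% of all genes tested.

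Carubv10012546m.g fell furthest in C. rubella. It stood at 130.7, 158.8 and 152.3 CPM in C. rubella expanding buds, against 565.2, 482.4 and 787.6 CPM in C. grandiflora. The groups were far apart, and the log2 fold was -2.19 (SE 0.20, edgeR adjusted p = 1.25e-09). Carubv10022412m.g was at 471.4, 617.1 and 615.0 CPM in C. rubella, against 2059.5, 2021 and 2679.7 CPM in C. grandiflora, a log2 fold of -2.12 (SE 0.29, edgeR adjusted p = 1.15e-06). At the other end, Carubv10006370m.g was not called, at 146.2 ± 13.7 CPM in the C. rubella libraries, against 141.5 ± 37.6 CPM in C. grandiflora (SD, n = 3 each), with overlapping libraries and a log2 fold of -0.09 (SE 0.17, edgeR adjusted p = 0.666). Folds are TMM-scaled while CPM values use library sums, so the fold of Carubv10006370m.g is negative though its mean CPM was higher in C. rubella. Carubv10012094m.g, with the most reads, had a log2 fold of -1.35 (SE 0.33, edgeR adjusted p = 0.00104).

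C. orientalis, which became selfing separately, was lower in fewer of the genes. Against C. grandiflora, 62 of the 93 genes were called lower and 4 higher, where those shares over all genes tested were 35.1% and 32.7%. Their median log2 fold was -0.68, with a range from -2.75 to 0.78, against -0.03 over all genes tested. In 26 genes the fall was called and at least 2-fold, against 17.2% of all genes tested. All C. orientalis libraries lay below all C. grandiflora libraries in 68 genes, above them in 6, and overlapped in 19. These 3 counts were not made over all genes. Both selfing species were set against the same C. grandiflora libraries, so the counts of the 2 comparisons are not independent.

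Carubv10022412m.g had the largest fall in C. orientalis as well as one of the largest in C. rubella, and varied most between species. Its C. orientalis libraries held 261.6, 329.0 and 468.8 CPM, below every C. grandiflora library given above, with a log2 fold of -2.75 (SE 0.30, edgeR adjusted p = 1.91e-08). Carubv10028337m.g was at 1025.9, 960.3 and 991.2 CPM in C. orientalis, against 3725, 4090 and 4347 CPM in C. grandiflora. Its log2 fold was -2.11 (SE 0.33, edgeR adjusted p = 4.35e-06), and C. rubella lay between them at 1913, 2209.8 and 2045 CPM.

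The 4 genes called higher in C. orientalis rose by less than 2-fold. Carubv10006370m.g was at 276.0, 247.7 and 244.7 CPM in C. orientalis and at 130.2, 110.8 and 183.5 CPM in C. grandiflora, a log2 fold of 0.78 (SE 0.17, edgeR adjusted p = 0.000361). Carubv10000533m.g was at 899.9, 913.3 and 746.1 CPM in C. orientalis and at 550.3, 521.4 and 521.5 CPM in C. grandiflora, a log2 fold of 0.61 (SE 0.17, edgeR adjusted p = 0.00305). In neither gene did the species overlap. The gene that varied least between species was Carubv10025101m.g, at 295.1 ± 8.69 CPM in C. orientalis, 246.2 ± 4.66 CPM in the C. rubella libraries and 296.5 ± 37.3 CPM in C. grandiflora (SD, n = 3 each).

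**Figure D2:**
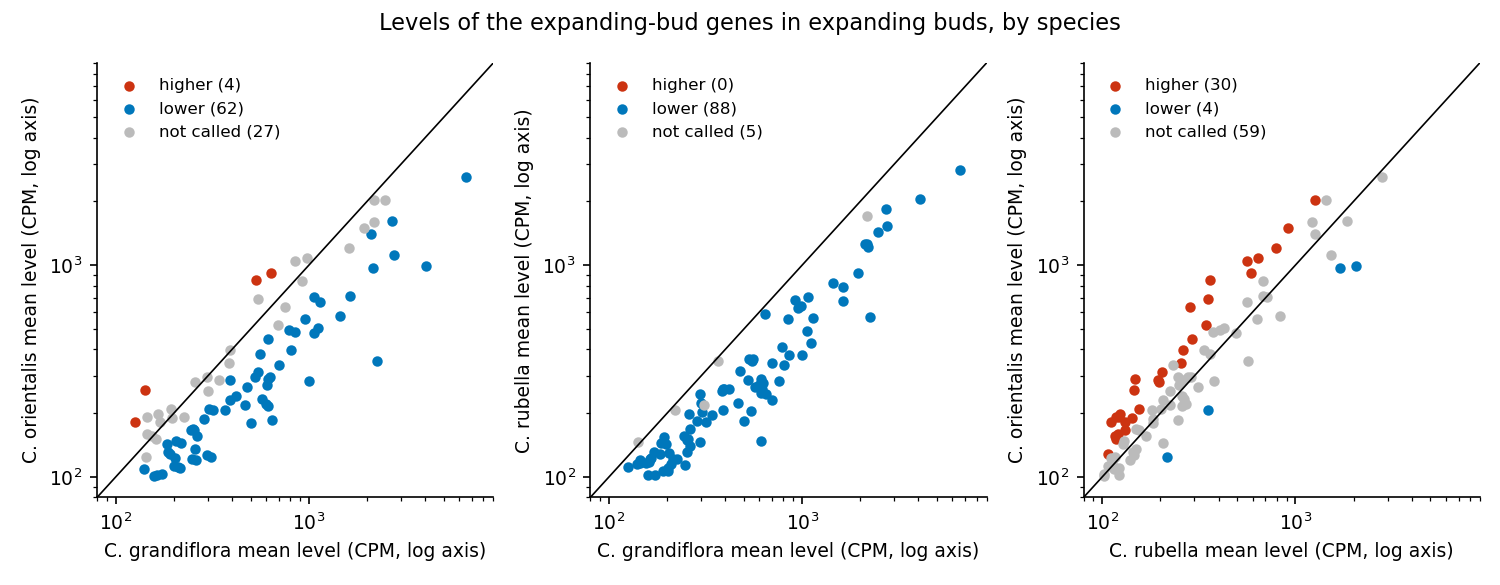
Mean level of each of the 93 genes in expanding buds of a pair of species, in CPM on log axes, with the line of equal levels. Each point is a gene's mean of 3 libraries, coloured by the edgeR call for the species on the vertical axis. Nearly all points lie below the line for C. rubella against C. grandiflora (88 lower, 0 higher), fewer for C. orientalis against C. grandiflora (62 lower, 4 higher).

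The selfing species were then set against each other. In C. orientalis expanding buds, set against C. rubella, 30 of the 93 genes were called higher and 4 lower, where 29.6% of all genes tested were higher and 32.6% lower. The count higher is thus near that over all genes, and the median log2 fold was 0.22 against -0.02 over all genes tested. A fit of these 2 groups alone called 50 higher and 14 lower, and DESeq2 called 23 higher and 0 lower, with 0 lower at an unadjusted p under 0.05 too, so the number of genes that differ depends on the model.

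Carubv10000533m.g rose most, at the C. orientalis levels given above against 389.2, 319.5 and 374.7 CPM in C. rubella, a log2 fold of 1.30 (SE 0.17, edgeR adjusted p = 5.89e-07). Carubv10015950m.g was at 687.6, 611.6 and 613.0 CPM in C. orientalis and at 227.7, 318.3 and 304.8 CPM in C. rubella, a log2 fold of 1.23 (SE 0.24, edgeR adjusted p = 8.62e-05), though DESeq2 gave an adjusted p of 0.0861. Carubv10028337m.g fell to 992.5 ± 32.8 CPM in C. orientalis, against 2056 ± 148.6 CPM in C. rubella (SD, n = 3 each), a log2 fold of -0.99 (SE 0.32, edgeR adjusted p = 0.00894). Carubv10027711m.g was at 1061.6, 987.6 and 859.6 CPM in C. orientalis and at 1594, 1814 and 1718 CPM in C. rubella, a log2 fold of -0.76 (SE 0.24, edgeR adjusted p = 0.00759). The species did not overlap in these 4 genes, but both falls missed the threshold in DESeq2, at adjusted p = 0.174 for Carubv10028337m.g and 0.175 for Carubv10027711m.g.

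Other genes with many reads were split more evenly. There were 1482 of them with at least 100 CPM in expanding buds of all species. C. rubella had 530 of these called lower and 331 higher when set against C. grandiflora, and their median log2 fold was -0.08. C. orientalis had 480 lower and 507 higher against C. grandiflora, with a median of 0.01. Set against C. rubella, 507 were higher and 331 lower in C. orientalis, with a median of 0.06. By group mean, C. grandiflora was the highest of the species in 78 of the 93 genes and C. orientalis in 15, while C. rubella was highest in 0 and lowest in 61. Among the 1482 other genes C. grandiflora was highest in 454 and lowest in 633. There C. rubella was highest in 458 and lowest in 375, and C. orientalis highest in 570 and lowest in 474. No test of the set against the other genes was made.

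**Figure D3:**
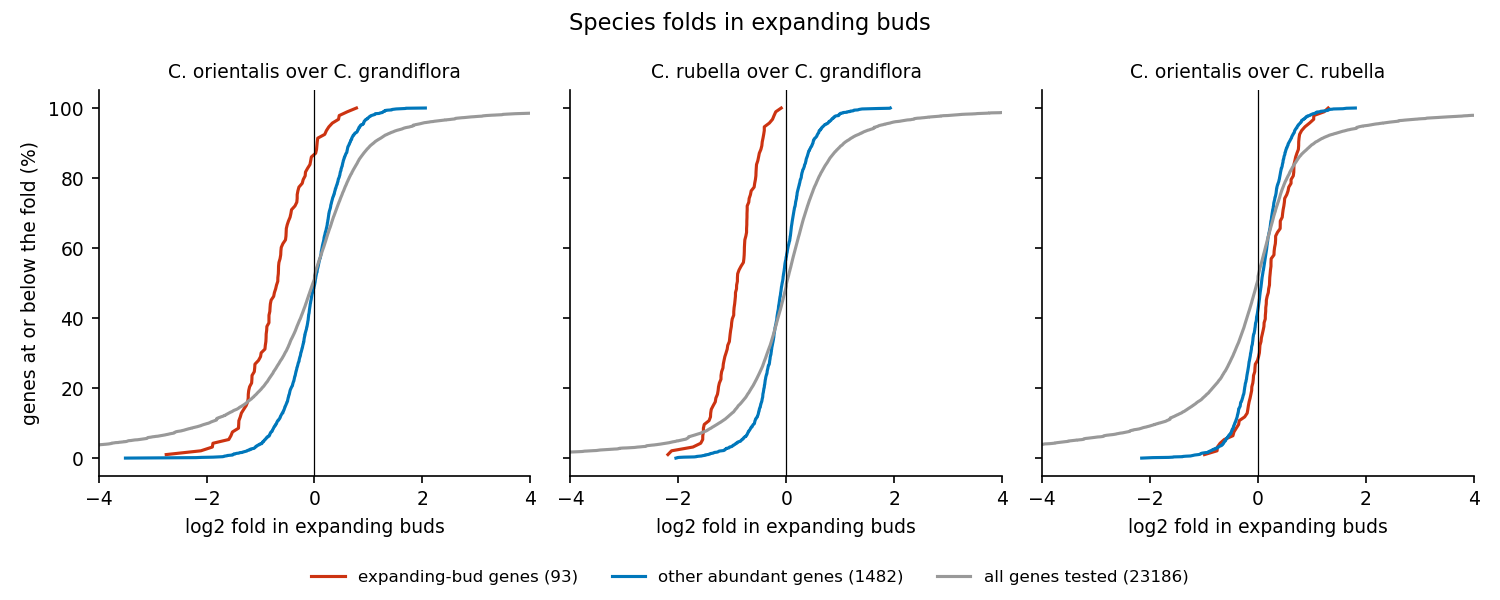
Cumulative share of genes by log2 fold between species in expanding buds, for the 93 genes, the 1482 other genes at 100 CPM or more in all species, and all 23186 genes tested. The curve of the 93 genes is shifted to negative folds against C. grandiflora, with medians of -0.68 in C. orientalis and -0.90 in C. rubella, and lies near the others for C. orientalis over C. rubella.

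The 93 genes also spread more between replicate libraries than the other genes with many reads. The coefficient of variation of CPM over the 3 expanding-bud libraries had a median of 8.55% for the 93 genes and 5.46% for the 1482 others in C. orientalis. It was 4.91% and 3.80% in C. rubella, and 11.3% and 6.97% in C. grandiflora. By these medians C. grandiflora had the widest spread in both sets of genes.

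Scaling bears on the size of these differences, and for Carubv10006370m.g in C. rubella over C. grandiflora on the direction. TMM factors, which scale libraries by genes of middling fold, were used for all fits. With library sums alone the median log2 fold of all genes tested moved by 0.14 between C. rubella and C. grandiflora expanding buds, and the median of the 93 genes was then -0.77. In that scaling 76 genes were lower and 0 higher in C. rubella. The shares of all genes called were not counted in that scaling.

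In dividing buds the 93 genes were low but measurable, and the order of the species changed. As a percent of the same species' expanding buds, the median gene stood at 0.686% in C. orientalis, 0.266% in C. rubella and 0.259% in C. grandiflora. At least 10 CPM was reached by 12 genes in C. orientalis, 5 in C. rubella and 10 in C. grandiflora. Across the 93 genes the dividing-bud level went with the expanding-bud level most in C. orientalis, with a Spearman rho of 0.673, against 0.435 in C. rubella and 0.325 in C. grandiflora. Without C. orientalis dividing buds replicate 1 its median was 0.559%, its rho was 0.654 and 12 genes again reached 10 CPM. Both levels of a gene share its length and sequence, and the rule sets a ceiling on one by the other, so these values are a description.

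Against C. grandiflora, 42 of the 93 genes were called higher and 10 lower in C. orientalis dividing buds, where 30.1% of all genes tested were higher and 29.3% lower. A rise of at least 2-fold with a call was seen in 34 genes, against 9.43% of all genes tested. The median log2 fold was 0.68, against 0.01 over all genes tested. Without C. orientalis dividing buds replicate 1, the library with the highest levels, 31 genes were higher and 12 lower, 26 of them higher by at least 2-fold (9.09% of all genes tested), and the median was 0.36. At this stage the direction was thus opposite to that in expanding buds, where 62 genes were lower in C. orientalis. The difference between stages was not tested.

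Of the 3 dividing-bud comparisons, the one between the selfing species called the most genes, with 68 higher and 4 lower in C. orientalis, where 31.1% of all genes tested were higher and 27.5% lower. In 61 genes the rise was called and at least 2-fold, against 13.1% of all genes tested, and the median log2 fold was 1.40, against 0.03. All C. orientalis libraries lay above all C. rubella libraries in 60 genes, a count not made over all genes. Leaving out C. orientalis dividing buds replicate 1 gave 52 higher and 4 lower with a median of 1.09, and 47 higher by at least 2-fold (12.6% of all genes tested).

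Carubv10015541m.g and Carubv10003776m.g, among the 10 genes with the most reads in expanding buds, showed it most plainly of the genes named. Carubv10015541m.g was at 16.7, 22.1 and 17.4 CPM in C. orientalis dividing buds, 0.912, 0.896 and 0.552 CPM in C. rubella, and 1.74, 0.707 and 1.00 CPM in C. grandiflora. Its log2 fold was 4.65 over C. rubella (SE 0.37, edgeR adjusted p = 9.12e-11) and 4.11 over C. grandiflora (SE 0.33, edgeR adjusted p = 1.92e-10). In expanding buds it had been lower in C. orientalis, at 1407 ± 149.6 CPM against 2108 ± 127.3 CPM in C. grandiflora (SD, n = 3 each; log2 fold -0.66, SE 0.24, edgeR adjusted p = 0.0189), a call that DESeq2 did not make (adjusted p = 0.232) and that edgeR lost without C. grandiflora expanding buds replicate 3 (adjusted p = 0.0521) or C. orientalis expanding buds replicate 3 (adjusted p = 0.0732).

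Carubv10003776m.g was at 16.2, 23.0 and 16.2 CPM in C. orientalis dividing buds, 0.631, 0.660 and 0.639 CPM in C. rubella, and 2.23, 1.44 and 0.751 CPM in C. grandiflora. The log2 folds were 4.88 over C. rubella (SE 0.45, edgeR adjusted p = 1.35e-09) and 3.71 over C. grandiflora (SE 0.38, edgeR adjusted p = 1.15e-08). In both genes every C. orientalis library was far above every library of the other species, and replicate 1 was not the highest.

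Of the 10 genes lower in C. orientalis dividing buds, Carubv10002677m.g stood furthest apart, at 0.0721, 0.0696 and 0.119 CPM in C. orientalis, against 14.9, 18.1 and 2.16 CPM in C. grandiflora. The C. orientalis values rest on 2, 2 and 3 reads, so no fold is given, and the C. grandiflora libraries differed widely among themselves. Carubv10007385m.g was at 38.8, 37.6 and 35.4 CPM in C. orientalis and at 72.2, 89.3 and 44.7 CPM in C. grandiflora, a log2 fold of -0.80 (SE 0.21, edgeR adjusted p = 0.00201).

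C. rubella dividing buds held 25 of the 93 genes lower and 2 higher than C. grandiflora, where 27.7% of all genes tested were lower and 24.0% higher. The count lower is near that over all genes, and the median log2 fold was -0.72, against -0.02. Most of the genes had few reads here, 58 of them under 1 CPM in C. rubella. Carubv10025408m.g fell to 0.526, 1.27 and 1.92 CPM in C. rubella, against 8.26, 13.5 and 16.3 CPM in C. grandiflora, a log2 fold of -3.28 (SE 0.55, edgeR adjusted p = 2.3e-05). In C. orientalis it was at 10.4, 15.7 and 10.5 CPM, a range that overlapped C. grandiflora. Carubv10013678m.g rose, at 38.1, 38.8 and 38.0 CPM in C. rubella, against 23.7, 26.9 and 26.9 CPM in C. grandiflora, a log2 fold of 0.60 (SE 0.09, edgeR adjusted p = 2.98e-06).

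**Figure D4:**
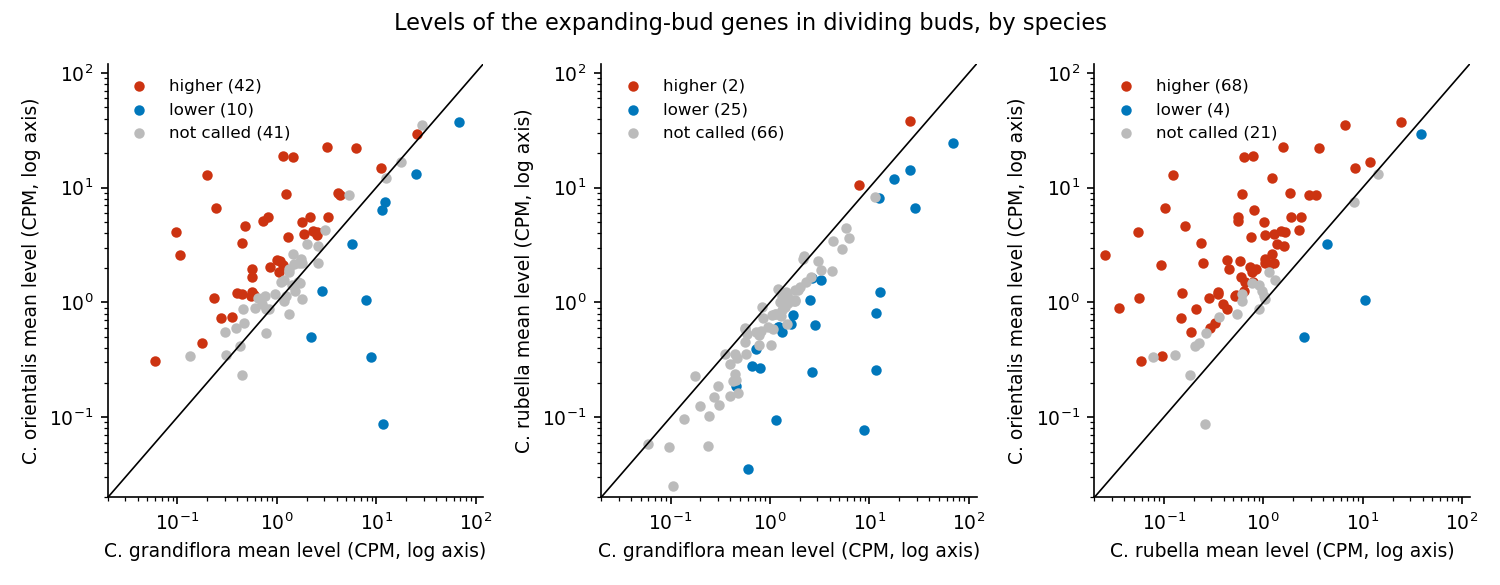
Mean level of each of the 93 genes in dividing buds of a pair of species, in CPM on log axes, with the line of equal levels. Each point is a gene's mean of 3 libraries, coloured by the edgeR call for the species on the vertical axis. Most points lie above the line for C. orientalis against C. rubella (68 higher, 4 lower), and the points of C. rubella against C. grandiflora lie mostly below it.

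Seedlings held the least of these genes. The median gene stood at 0.0974% of its expanding-bud level in C. orientalis, 0.102% in C. rubella and 0.0979% in C. grandiflora. Of the 93 genes, 75 were under 0.5% in all species and 7 were over 1% in all. At least 10 CPM was reached by 2 genes in C. orientalis, 3 in C. rubella and 5 in C. grandiflora. Without C. orientalis seedlings replicate 1 and C. grandiflora seedlings replicate 2, the median was 0.0545% in C. orientalis and 0.0353% in C. grandiflora, and 10 CPM was reached by 2 and 3 genes. The counts under 0.5% and over 1% were 75 and 7 without them as well.

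With all libraries, these low levels differed between libraries of a group more than between species. The median gene stood at 0.164%, 0.0631% and 0.0475% of its expanding-bud level in the C. orientalis libraries, 0.0788%, 0.125% and 0.117% in C. rubella, and 0.0288%, 0.231% and 0.0463% in C. grandiflora. Without C. orientalis replicate 1 and C. grandiflora replicate 2, each C. rubella library lay above each library left of the other species. The 75 genes under 0.5% summed to 54.6, 20.6 and 15.8 CPM in C. orientalis, 25.7, 34.7 and 32.2 CPM in C. rubella, and 16.3, 127.7 and 26.9 CPM in C. grandiflora. The high C. grandiflora library, replicate 2, was also the least deep of the 27, and its value rests on 1355 reads. The part that depth or another property of these libraries has in the seedling results was not tested.

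**Figure D5:**
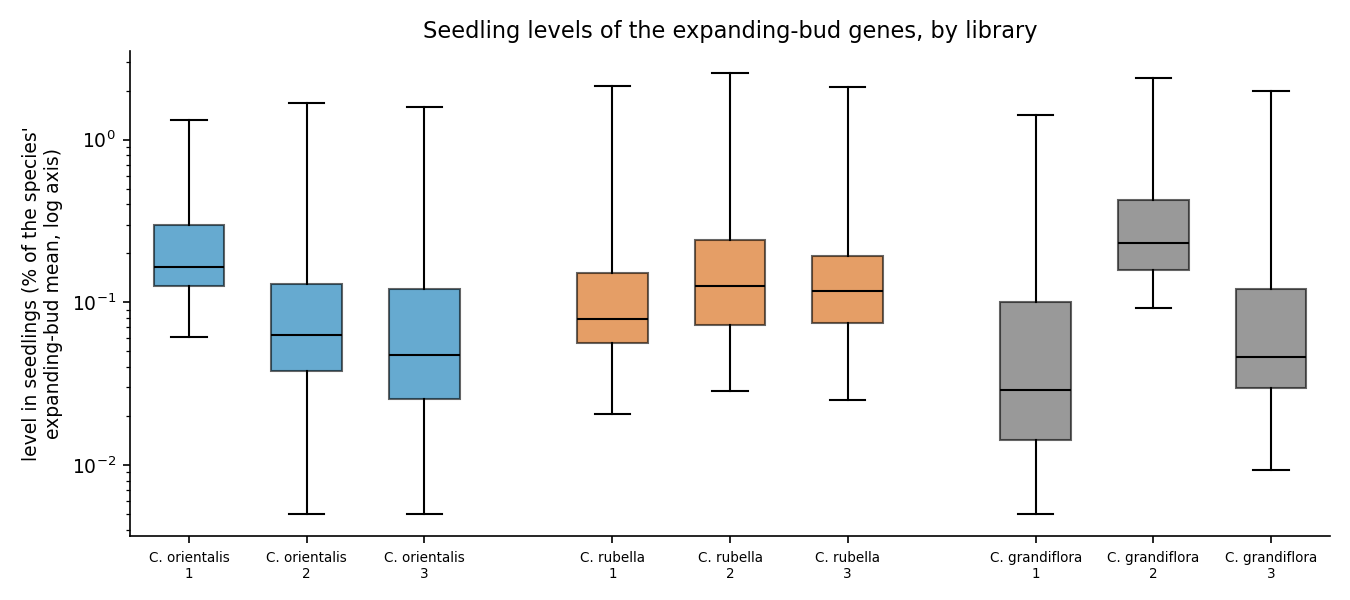
Level of the 93 genes in each seedling library as a percent of the same species' mean in expanding buds, on a log axis. Boxes span the quartiles with the median as a line, whiskers reach the 5th and 95th percentiles, and values under 0.005%, zeros included, are drawn at 0.005%. C. grandiflora replicate 2 (median 0.231%) and C. orientalis replicate 1 (median 0.164%) lie above the other libraries of their species.

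Few of the 93 genes were called different between species in seedlings. Most had few reads there, which limits what can be called. Under 1 CPM were 71 of them in C. orientalis, 74 in C. rubella and 63 in C. grandiflora. Against C. grandiflora, 9 were called higher and 12 lower in C. orientalis, where 27.7% of all genes tested were higher and 28.1% lower. In C. rubella 3 were higher and 10 lower than in C. grandiflora, against 20.1% and 23.0% of all genes tested. Between the selfing species 9 were higher and 7 lower in C. orientalis, against 31.4% and 28.8%. Without C. grandiflora seedlings replicate 2 and C. orientalis seedlings replicate 1 the counts were 7 higher and 11 lower in C. orientalis and 6 higher and 8 lower in C. rubella against C. grandiflora, and 8 higher and 16 lower in C. orientalis against C. rubella. Over C. grandiflora the C. rubella median log2 fold was -0.44 with all libraries and 0.68 without these libraries, so no direction is given for seedlings. In C. orientalis over C. grandiflora it was -0.31 with all libraries and -0.15 without them.

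Of the 3 genes with the highest levels outside expanding buds, 2 had more even seedling levels. The other, Carubv10022878m.g, was high in dividing buds, and in seedlings it was at 0.854, 0.280 and 0.274 CPM in C. orientalis, 0.647, 0.681 and 0.564 CPM in the C. rubella libraries, and 0.914, 4.71 and 1.23 CPM in C. grandiflora. Carubv10007385m.g, the gene nearest the ratio threshold, was at 5.19, 7.47 and 9.59 CPM in C. orientalis seedlings, 15.2, 17.1 and 11.6 CPM in C. rubella, and 23.6, 24.5 and 40.8 CPM in C. grandiflora. The species did not overlap, and the log2 folds were -1.86 in C. orientalis over C. grandiflora (SE 0.24, edgeR adjusted p = 4.09e-07) and -0.89 in C. rubella over C. grandiflora (SE 0.22, edgeR adjusted p = 0.00245). Carubv10013678m.g was at 7.23, 6.12 and 8.45 CPM in C. orientalis seedlings, 19.0, 21.4 and 20.02 CPM in C. rubella, and 14.7, 17.5 and 15.5 CPM in C. grandiflora. C. rubella was the highest species for this gene in seedlings (log2 fold 0.48 over C. grandiflora, SE 0.09, edgeR adjusted p = 0.000211) and C. orientalis the lowest (log2 fold -0.96 over C. grandiflora, SE 0.10, edgeR adjusted p = 1.64e-08).

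The same gene had another order in expanding buds, where Carubv10013678m.g was at 884.8, 941.2 and 927.4 CPM in C. orientalis, 556.8, 627.9 and 584.2 CPM in C. rubella, and 635.0, 644.8 and 640.3 CPM in C. grandiflora. There C. orientalis was the highest species, with a log2 fold of 0.45 over C. grandiflora (SE 0.08, edgeR adjusted p = 5.52e-05). C. rubella was the lowest, with a log2 fold of -0.25 over C. grandiflora (SE 0.08, edgeR adjusted p = 0.0119), a call that was lost with library sums alone (adjusted p = 0.232) and without C. rubella expanding buds replicate 1 (adjusted p = 0.0684).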

How the data were processed

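The authors deposited raw counts of reads per gene, made with HTSeq after Trimmomatic, per the submitters' processing notes; the labels' protocols name TruSeq libraries and single reads of 50 cycles. The aligner, build, annotation and strand use were not given in the sources used here. Reads of each species were counted on the same Carubv identifiers, so reads that differ from those models, or come from near-identical or overlapping genes, can be lost or misassigned. The 5 summary rows were left out (2.97% to 5.69% no feature, 3.67% to 4.65% ambiguous, 4.03% to 9.44% not unique).

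Counts were fitted in R 4.3.3 with edgeR 4.0.16 (filterByExpr, TMM, quasi-likelihood test) over 27 libraries in 9 groups, with 18 residual degrees of freedom and Benjamini-Hochberg adjustment over 23186 genes. Folds are TMM-scaled, and CPM values use library sums. The fit was also run on simulated data in which few genes differed, unlike in these species comparisons, so nothing is drawn from that run. Replicate pairs differed by 5.14 to 42.9 chi-square per degree of freedom, which is more than counting noise.

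The members and lists were chosen with earlier results of these data known. Named genes follow a rule: most reads, largest called rises and falls in expanding buds without overlap, most and least variable, nearest the thresholds, highest off-stage. With no names for identifiers, at most 2 rises and 2 falls are named per comparison, lists by product name were not applied, and no sequence is shown. For dividing buds and seedlings, genes were picked from those after their values were seen. Alternatives were RLE scaling, DESeq2 1.42.0, no filter, a fit of 2 groups, the replicate number as a block, an adjusted p under 0.01, other rule thresholds and leaving out libraries. Library sums alone, leaving out both high seedling libraries, and levels without the high libraries were added after seeing the data.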

Additional observations from a re-analysis of the deposited data

Results flagged for a closer look

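The genes below differed between species in opposite directions at different stages, with every library of a species on the same side at each. The difference between stages itself was not tested. All values are log2 folds of the species named first over the other.

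Between C. orientalis and C. grandiflora, Carubv10012094m.g was at -1.41 in expanding and 1.93 in dividing buds, Carubv10003776m.g at -0.82 and 3.71, and Carubv10015541m.g at -0.66 and 4.11. Carubv10006370m.g was at -1.49 in seedlings but 2.29 in dividing and 0.78 in expanding buds, and Carubv10013678m.g at -0.96, 0.26 and 0.45 in the same order. Some of these edgeR calls were not stable. The -0.82 of Carubv10003776m.g was lost in DESeq2 (adjusted p = 0.154) and in edgeR without C. orientalis expanding buds replicate 3 (adjusted p = 0.0514), and the -0.66 of Carubv10015541m.g in DESeq2 (adjusted p = 0.232). The 0.26 of Carubv10013678m.g was lost in edgeR with library sums alone (adjusted p = 0.0852), without C. grandiflora dividing buds replicate 1 (adjusted p = 0.0749) and without C. orientalis dividing buds replicate 2 (adjusted p = 0.0925).

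Between C. orientalis and C. rubella, Carubv10003776m.g was at -0.13 in expanding buds, which was not called, and at 4.88 in dividing buds. Carubv10027711m.g was at -0.76 and 1.11. DESeq2 called neither of these (adjusted p = 0.175 and 0.0596), and edgeR lost the 1.11 without C. orientalis dividing buds replicate 1 (adjusted p = 0.115), C. rubella dividing buds replicate 2 (adjusted p = 0.0625) or replicate 3 (adjusted p = 0.0596). Carubv10012546m.g was at 1.93 in dividing and 1.03 in expanding buds but -1.72 in seedlings, where edgeR did not call it (adjusted p = 0.15), DESeq2 did (adjusted p = 0.0398), and it rests on 4, 1 and 0 reads in C. orientalis and 4, 9 and 5 in C. rubella. Taken as seedlings, dividing buds and expanding buds, Carubv10007385m.g was at -0.97, 0.66 and 0.68, and Carubv10013678m.g at -1.44, -0.34 and 0.70.

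Between C. rubella and C. grandiflora, Carubv10013678m.g alone of the genes named showed this, at 0.48 in seedlings, 0.60 in dividing buds and -0.25 in expanding buds, the last a call lost in edgeR with library sums alone (adjusted p = 0.232).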

How the results depend on the processing

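Of 503 recomputed counts and medians, 461 kept their direction and stayed within 1.5 times the value reported, 35 moved further and 7 medians changed sign, all of these in seedlings. The counts for C. rubella and C. orientalis over C. grandiflora in expanding buds, and for C. orientalis over either species in dividing buds, stayed within 1.5 times in all alternatives run. For C. orientalis over C. rubella in expanding buds, DESeq2 called 0 genes lower, and a fit of the 2 groups alone called 64, 50 higher and 14 lower. In C. rubella over C. grandiflora dividing buds 1 gene was higher at an adjusted p under 0.01, and 1 to 2 were with a library left out. In seedlings DESeq2 called 20 genes in C. rubella over C. grandiflora, 16 of them lower, and 22 lower in C. orientalis over C. grandiflora. The fit of 2 groups called 8, 6 of them lower, in the first of these comparisons and 5 higher in the second, as did an adjusted p under 0.01. The causes were not tested. Beyond those given for rises of at least 2-fold, shares of all genes called were not counted for the alternatives.

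With seedling libraries left out, 2 to 6 genes were higher in C. rubella over C. grandiflora and the median log2 fold was -0.84 to 0.68, and Carubv10003776m.g lay between -0.77 and 1.10. In C. orientalis 5 to 13 were higher than in C. grandiflora, with a median of -1.19 to 0.71, and 7 to 16 were lower than in C. rubella, with a median of -0.84 to 0.24. The sign against C. grandiflora turned only where C. grandiflora seedlings replicate 2 was left out. Without C. orientalis seedlings replicate 1 the median over C. rubella was -0.84.

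The rule gave 52 members at 200 CPM, 114 at 4-fold, 86 at 16-fold and 90 to 96 with a library left out. With TMM-scaled CPM 93 genes met it, 91 of them shared. Of 1788 recomputed values of named genes, 1677 kept their side of the threshold, 77 lost and 33 gained a call, and 1 turned. Same-numbered libraries did not deviate together: in 0 of 9 comparisons did every pair correlate above 0.1. With the replicate number as a block, C. rubella had 87 genes lower than C. grandiflora in expanding buds, C. orientalis 62 lower than C. grandiflora, and C. orientalis 69 higher than C. rubella in dividing buds. Each library correlated best with its own number in that last comparison alone. Low reads limit the seedling folds.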
